A study of Homo sapiens with 6 samples.

Results

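HOX genes encode homeodomain transcription factors, and the RefSeq annotation of the human genome (GRCh38.p14) holds 39 of them in 4 clusters, HOXA on chromosome 7, HOXB on chromosome 17, HOXC on chromosome 12 and HOXD on chromosome 2. The members described here are the genes whose symbol is HOX, a cluster letter and a paralog number, which 29 of the 21151 genes of the count table met (10 in HOXA, 3 in HOXB, 9 in HOXC and 7 in HOXD). The other 10 HOX genes were not analysed here, among them 7 of HOXB. Sums over a cluster or a range of paralog numbers, and shares of summed HOX levels, thus cover analysed members only.

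The transcriptomes were those of CCD-1064Sk, a human fibroblast line from skin whose body site the labels do not give. To learn how ZNF469, a zinc-finger gene, affects the production of extracellular matrix, lines were made with short-hairpin RNAs, which direct the breakdown of a matching transcript. They comprised cells with hairpins against ZNF469 (shZNF469, 3 libraries, genotype given as ZNF469 knockdown) and cells with control hairpins (shControl, 3 libraries, genotype given as WT). No drug, time or dose differed between the groups. The design text calls the 3 libraries of a group technical replicates, so p-values cover the spread among libraries of a line and not that among lines. The labels do not say how many hairpins were used or whether a line is 1 clone.

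HOX genes are read in the embryo in an order that follows their order along each chromosome, and genes with high paralog numbers mark the posterior trunk, the distal limb and the genital region. Adult fibroblasts kept in culture retain such a pattern from the site they were taken from, which is why HOX levels are used as a record of positional identity in skin. HOX proteins bind DNA with partners of the TALE class (PBX and MEIS proteins), and Polycomb and trithorax complexes keep HOX genes silent or active.

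Total counts ran from 41318439 to 48298264 in shZNF469 libraries and from 35417366 to 46911355 in shControl libraries. ZNF469 had 21.4, 18.3 and 18.5 CPM (counts relative to library size after TMM scaling by edgeR) in shZNF469 libraries, against 39.75, 46.2 and 39.9 CPM in shControl libraries, and thus fell in the libraries labelled as its knockdown (log2 fold change -1.11, SE 0.092, edgeR adjusted p = 0.000873). All 11 fibroblast markers were tested, and their summed level was 24990 to 26430 TPM (the authors' level per transcript length) in shZNF469 and 31930 to 34300 TPM in shControl. Of these markers, COL1A1, COL1A2 and COL3A1 fell in shZNF469 and VIM rose (5 higher and 3 lower at an unadjusted p under 0.05), and the median log2 fold change of the list was 0.12, opposite in sign to the change of its sum. Markers of other cell types were summed as well. Those of immune cells (2 of 6 analysed, CD68 and CD14) had 203.5 to 245.0 TPM in shZNF469 and 171.9 to 194.9 TPM in shControl. Nearly all of this was CD68, which did not pass (edgeR adjusted p = 0.146), and CD14 was at 1.755 TPM or less. Melanocyte markers (2 of 6, MITF and PMEL, of which PMEL rose) had 51.3 to 62.6 TPM in shZNF469 and 38.0 to 42.4 TPM in shControl. Smooth muscle or pericyte markers (5 of 6, of which MCAM fell, edgeR adjusted p = 0.0173) had 96.3 to 113.6 TPM in shZNF469 and 106.0 to 118.6 TPM in shControl. Keratinocyte markers (2 of 6) had 18.5 to 19.7 TPM in shZNF469 and 24.9 to 28.8 TPM in shControl. Nearly all of it was KRT10, which fell (edgeR adjusted p = 0.019), with EPCAM at 0.917 TPM or less. Schwann cell markers (2 of 5) had 4.81 to 5.19 TPM in shZNF469 and 5.67 to 6.66 TPM in shControl. The analysed endothelial marker, VWF (1 of 5), was at 0.546 TPM or less, and at 0 in 3 libraries. All 10 cell cycle markers fell, to 177 to 183 TPM summed in shZNF469, against 325 to 351 TPM in shControl. The part of these marker differences in the values below was not tested.

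Among the analysed members, the HOX pattern of these cells was posterior and was led by HOXA. The 4 posterior HOXA genes (paralog groups 9 to 13) made up 62.9% to 64.2% of the summed HOX TPM in shZNF469 libraries and 65.5% to 65.9% in shControl libraries, without overlap. Their summed levels did overlap, at 131.2, 146.8 and 132.5 TPM in shZNF469 and 151.9, 161.5 and 134.8 TPM in shControl. HOXA10 is among these genes and had a lower TPM in each shZNF469 library than in any shControl library. Its part in the separation of the shares was not tested. Posterior genes of all 4 clusters (15 members) together held 84.0% to 85.8% over the 6 libraries, central genes (paralog groups 4 to 8, 10 members) held 10.7% to 12.3%, and anterior genes (paralog groups 1 to 3, 4 members) held 3.06% to 3.91%. Most HOX genes that were not analysed are anterior or central by paralog number, and these shares leave them out. Summed levels of all HOX members were 204.5, 233.4 and 207.5 TPM in shZNF469 and 232.1, 246.2 and 204.7 TPM in shControl, and the groups overlapped.

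HOXA11, which patterns the middle segment of the limb and the uterus in mouse, was the highest HOX gene per length. It had 69.2, 74.2 and 70.7 TPM in shZNF469 libraries, against 70.6, 78.8 and 64.0 TPM in shControl libraries, and the groups overlapped. Its lowest library lay above every library of the next gene, HOXA10, a regulator of hindlimb and reproductive tract patterning in mouse. HOXA10 had 33.4, 39.0 and 34.2 TPM in shZNF469 and 45.7, 49.5 and 42.2 TPM in shControl, so that each shZNF469 library was lower than each shControl library. HOXA13, which specifies the most distal limb and the genital tubercle, followed at 21.8, 25.8 and 19.3 TPM in shZNF469 and 26.6, 24.0 and 21.3 TPM in shControl. HOXC10, another posterior gene, had 20.8, 24.96 and 25.5 TPM in shZNF469 and 20.9, 24.9 and 16.3 TPM in shControl, and its range over the 6 libraries overlapped that of HOXA13.

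Below these 4 genes the order was HOXA7 (9.30 to 12.5 TPM over the 6 libraries), HOXA9 (6.72 to 9.12 TPM) and HOXD11 (4.58 to 6.55 TPM), whose ranges did not overlap one another. From HOXD11 down to HOXC4 each range overlapped the next, through HOXD10 (3.96 to 8.30 TPM), HOXB2 (4.13 to 5.57 TPM), HOXC6 (3.78 to 6.14 TPM), HOXC9 (3.54 to 4.74 TPM), HOXA5 (2.19 to 4.31 TPM) and HOXC11 (1.97 to 3.01 TPM). HOXC4 itself had 1.88 to 2.59 TPM. Of the 28 pairs of neighbours in the order, 6 had ranges that did not overlap, and from HOXA6 (1.09 to 1.79 TPM) down no neighbours were separated. Paralogs of 1 group thus stood at different levels, as HOXA13 was at 19.3 to 26.6 TPM while HOXB13, HOXC13 and HOXD13 were at 0.368 to 1.57 TPM. Along HOXA, HOXA3 to HOXA6 reached at most 4.31 TPM and HOXA7 to HOXA13 had at least 6.72 TPM.

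**Figure D1:**
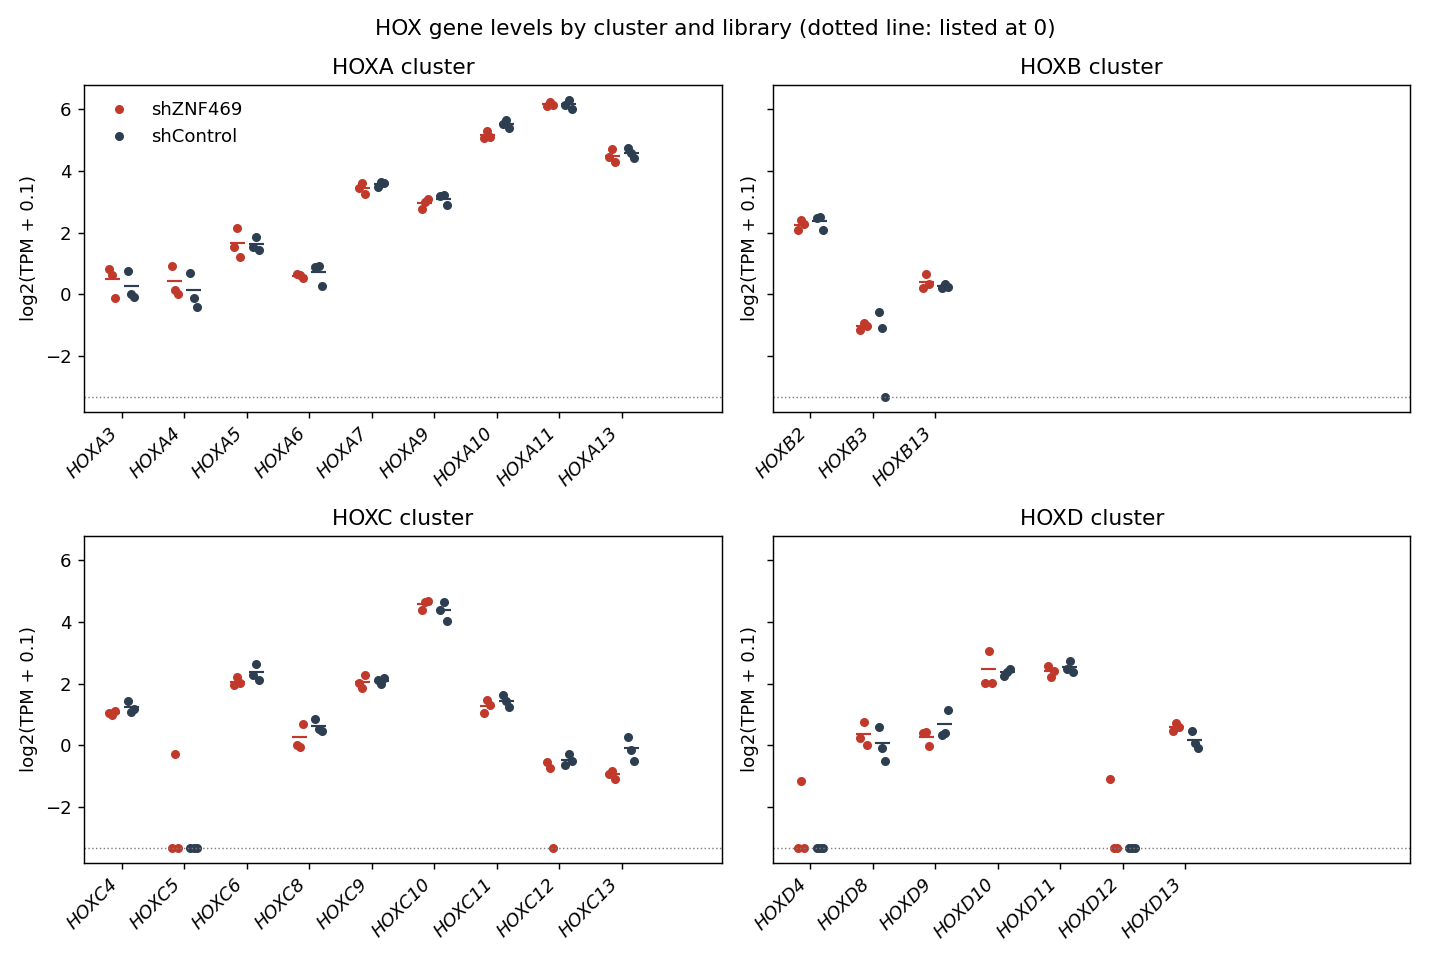
Levels of 28 of the 29 HOX members, as log2(TPM + 0.1), by cluster and in order of paralog number; points are the 3 shZNF469 and the 3 shControl libraries, lines are group means where no library was listed at 0, and the dotted line marks libraries listed at 0. HOXA10, HOXA11, HOXA13 and HOXC10 stood highest, between 16.3 and 78.8 TPM.

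A gene listed at 0 is not shown to be silent. In a library, the smallest TPM other than 0 of any gene was 0.333 to 0.456, and a level under it may stand behind a 0. Of the 29 members, 24 were above 0 in all libraries. HOXB3 was listed at 0 in shControl replicate 3 and HOXC12 in shZNF469 replicate 3. HOXC5, HOXD4 and HOXD12 were each above 0 in 1 shZNF469 library, at 0.717, 0.354 and 0.372 TPM, and were not tested.

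Of the 26 HOX genes tested, 1 was lower and 0 were higher in shZNF469 at an edgeR adjusted p under 0.05, which is 3.85% of them, beside 9.9% of all 16353 tested genes (4.56% higher and 5.34% lower). At an unadjusted p under 0.05 there were 1 lower and 1 higher, and DESeq2 called 1 lower and 0 higher, beside 22.5% of the genes it gave an adjusted p. The median log2 fold change of the HOX genes was -0.08, with 11 above and 15 below 0, and that of all tested genes was 0.004. HOX genes were mostly low: 6 of the 26 had a mean of 5 CPM or more, as did 68% of all tested genes, so the depth behind most members was small. For 10 of the 26 the 95% interval of the difference lay within a 1.5-fold change either way, and for 18 within a 2-fold change. For the other 8 the interval reached beyond 2-fold in at least 1 direction.

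HOXA10 was the gene that fell. The gene lies on the minus strand of chromosome 7, 27170605 to 27179861, between HOXA9 and HOXA11. It had 1465, 1648 and 1313 counts in shZNF469 libraries and 1470, 1978 and 1509 in shControl libraries. Scaled, these were 31.4, 33.25 and 32.3 CPM in shZNF469 and 41.3, 42.0 and 40.3 CPM in shControl. All 3 shZNF469 libraries were below all 3 shControl libraries. The means were 32.3 ± 0.934 CPM in shZNF469 and 41.2 ± 0.820 CPM in shControl (SD, n = 3 each), a 1.27-fold fall (log2 fold change -0.35, SE 0.052, 95% interval -0.47 to -0.23, edgeR adjusted p = 0.00793). The call was lost without shControl replicate 1 (adjusted p = 0.0525) or shControl replicate 2 (adjusted p = 0.0507) and with limma on the TPM (adjusted p = 0.0686 and 0.0769 with a pseudocount of 1 and 0.1 on log2), while the log2 fold change stayed between -0.37 and -0.33 in the 14 alternatives. In a bulk culture, fewer cells that make the transcript and less of it per cell cannot be told apart.

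HOXA10 shares exons with 2 other annotated genes. HOXA10-AS, on the opposite strand, had 2.25, 1.98 and 2.83 CPM in shZNF469 and 2.89, 2.63 and 2.91 CPM in shControl, which overlapped (edgeR adjusted p = 0.485). AC004080.3, a protein-coding gene on the same strand that also overlaps HOXA9, had 44, 9 and 28 counts in shZNF469 and 41, 0 and 56 in shControl. Whether the counting used strand is not stated in the labels, so reads of a HOX gene and of an opposite transcript cannot be told apart. This bears on the 15 members that share exons with a gene on the opposite strand in GENCODE release 29, and a further uncertainty bears on the 14 that share exons on the same strand, among them HOXC4, HOXC5 and HOXC6. Among the 15 is HOXA11, at 64.0 to 78.8 TPM over the 6 libraries, where the opposite HOXA11-AS had 32.05 to 35.3 TPM.

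The sequences before the starts of HOXA10 and HOXA11 are shown because these neighbours are the 2 highest HOX genes and HOXA10 passed the test while HOXA11 did not, a difference between them that was not tested. Each window is the 250 bases upstream of a RefSeq start (GRCh38.p14, minus strand, printed 5′ to 3′), with TAAT on either strand in capitals, the core letters that many homeodomains bind. The HOXA10 window, chr7:27174321-27174570, precedes the inner of its 2 starts and holds no exon of GENCODE release 29, and the HOXA11 window, chr7:27185233-27185482, overlaps exons of HOXA11-AS.
HOXA10: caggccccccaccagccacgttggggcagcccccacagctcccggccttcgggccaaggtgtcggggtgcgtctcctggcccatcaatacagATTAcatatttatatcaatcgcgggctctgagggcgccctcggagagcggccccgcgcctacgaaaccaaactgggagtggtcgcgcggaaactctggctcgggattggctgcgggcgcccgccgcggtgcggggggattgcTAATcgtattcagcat
HOXA11: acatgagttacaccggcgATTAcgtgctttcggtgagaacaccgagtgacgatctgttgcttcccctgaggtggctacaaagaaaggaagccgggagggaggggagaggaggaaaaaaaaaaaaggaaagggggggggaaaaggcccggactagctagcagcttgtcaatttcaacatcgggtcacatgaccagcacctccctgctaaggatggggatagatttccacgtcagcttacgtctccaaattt
The HOXA10 window held TAAT 2 times and the HOXA11 window 1 time, and 47.5% of the 34943 upstream windows of the same length in the table held it on either strand. TGATTNAT, a motif of joint PBX and HOX binding, was in neither window and in 2.49% of all. TATAAA, also searched on both strands, was in the HOXA10 window as its reverse complement TTTATA and in 10.8% of all. The HOXA10 window held 24 CG dinucleotides and the HOXA11 window 11, where the median of all windows was 11. The window before the outer HOXA10 start, which overlaps exons and is not printed, held TAAT 0 times, TATAAA 1 time and 19 CG dinucleotides, so that the order of HOXA10 and HOXA11 in TAAT differed between the 2 HOXA10 starts. Such matches describe letters and do not show binding.

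The other leading posterior genes did not pass. HOXA11 had 80.1, 80.9 and 86.8 CPM in shZNF469 and 78.4, 87.6 and 77.3 CPM in shControl, and its 95% interval ran from 0.911-fold to 1.14-fold (edgeR adjusted p = 0.876). HOXA13 had 45.8, 51.6 and 43.2 CPM in shZNF469 and 53.6, 49.3 and 46.5 CPM in shControl (interval 0.822-fold to 1.08-fold, edgeR adjusted p = 0.614). For both genes the groups overlapped. HOXC10 had 17.5, 16.04 and 17.5 CPM in shZNF469 and 15.4, 15.4 and 14.04 CPM in shControl, without overlap, but its difference did not pass (log2 fold change 0.19, SE 0.076, unadjusted p = 0.0421, edgeR adjusted p = 0.186).

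**Figure D2:**
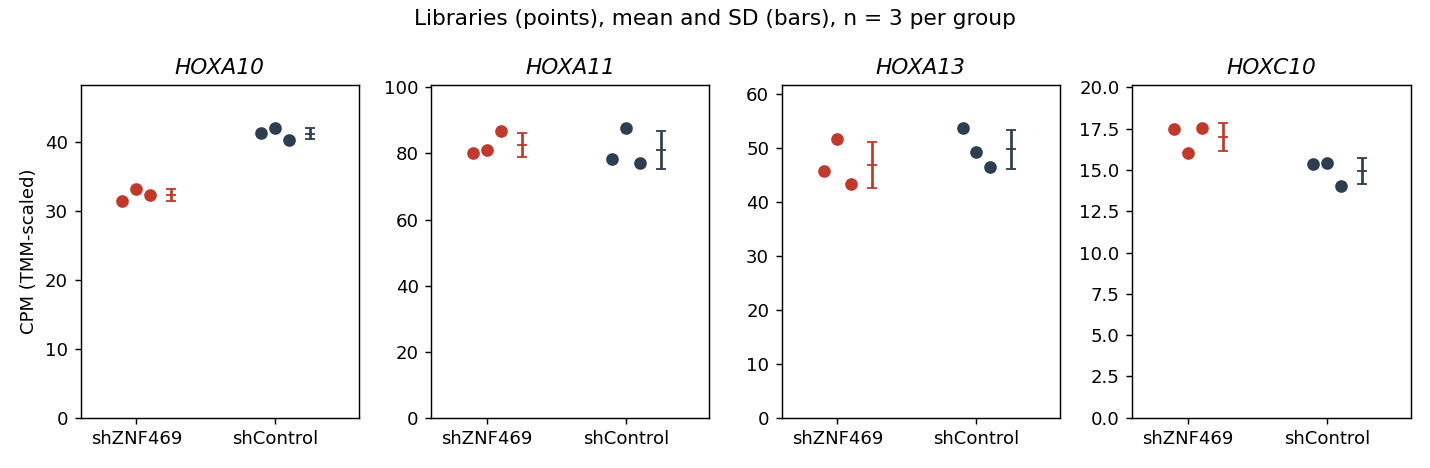
CPM of the 4 highest HOX genes in the 3 shZNF469 and 3 shControl libraries (points), with mean and SD beside them (n = 3 per group). HOXA10 lay at 31.4 to 33.25 CPM in shZNF469 and at 40.3 to 42.0 CPM in shControl, HOXA11 and HOXA13 overlapped between groups, and HOXC10 did not overlap but missed the adjusted threshold.

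In CPM, groups did not overlap for 5 of the 26 tested HOX genes, or 19.2%, beside 31.4% of all tested genes. Of these 5, 2 were higher in shZNF469 (HOXC10 and HOXD13) and 3 lower (HOXA10, HOXC6 and HOXC13), beside 15.6% higher and 15.7% lower of all tested genes. The separation of HOXC10 and HOXC6 depended on the unit, as both overlapped between groups in TPM. HOXC6, a central gene, had 3.77, 4.42 and 4.58 CPM in shZNF469 and 5.17, 5.84 and 4.65 CPM in shControl. Its difference did not pass (log2 fold change -0.30, SE 0.140, edgeR adjusted p = 0.251). HOXD13, a gene of digit formation, had 1.37, 1.55 and 1.6 CPM in shZNF469 and 1.29, 0.997 and 0.936 CPM in shControl and did not pass either (log2 fold change 0.49, SE 0.292, edgeR adjusted p = 0.375).

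In HOXD, HOXD11 had 3.86, 2.85 and 3.54 CPM in shZNF469 and 3.62, 3.95 and 3.48 CPM in shControl (edgeR adjusted p = 0.753). HOXD10 had 2.81, 4.72 and 2.83 CPM in shZNF469 and 3.23, 3.46 and 3.18 CPM in shControl, with shZNF469 replicate 2 the highest of the 6 libraries (edgeR adjusted p = 0.899). These neighbours share exons in the annotation. HOXD9 had 1.01, 0.968 and 0.787 CPM in shZNF469 and 0.926, 0.976 and 1.82 CPM in shControl, where shControl replicate 3 stood above the other libraries (edgeR adjusted p = 0.601).

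In HOXC, HOXC9 had 2.59, 2.18 and 3.27 CPM in shZNF469 and 2.64, 2.42 and 3.02 CPM in shControl, with overlap (log2 fold change -0.01, SE 0.204, edgeR adjusted p = 0.989). In HOXB, HOXB2, an anterior gene of hindbrain patterning, had 2.76, 3.55 and 3.67 CPM in shZNF469 and 3.70, 3.63 and 3.16 CPM in shControl (edgeR adjusted p = 0.853). HOXB13, known from prostate and distal gut, had 1.37, 1.86 and 1.62 CPM in shZNF469 and 1.35, 1.51 and 1.497 CPM in shControl (edgeR adjusted p = 0.78). HOXB3 had 0.643, 0.746 and 0.763 CPM in shZNF469 and 1.01, 0.658 and 0 CPM in shControl. None of these differences was larger than the spread between libraries. The remaining 13 tested members also missed the threshold.

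**Figure D3:**
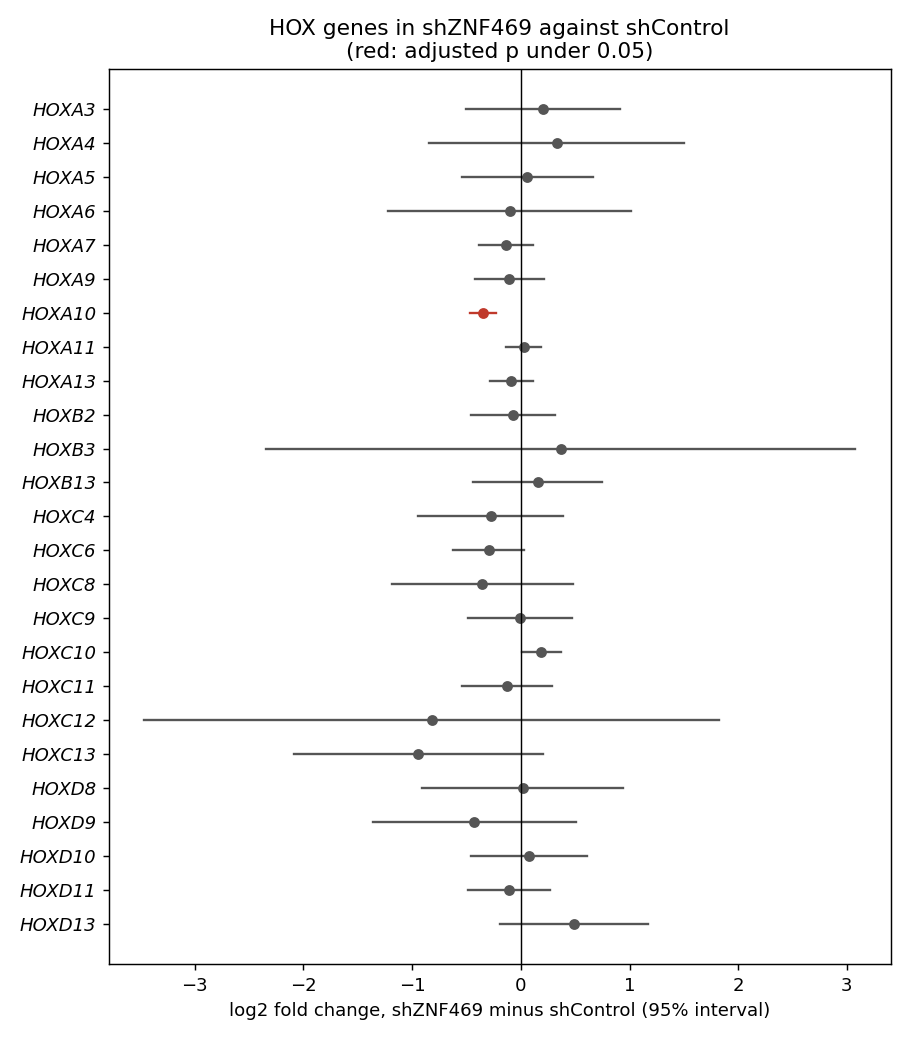
Log2 fold change (shZNF469 minus shControl) of 25 of the 26 tested HOX genes with 95% intervals, from HOXA3 at the top to HOXD13 at the bottom. HOXA10, in red, is the gene with an adjusted p under 0.05; intervals widen for low genes, to -2.34 to 3.07 for HOXB3.

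By cluster, the median log2 fold change was -0.03 in HOXA (1 of 10 tested genes lower), 0.16 in HOXB (0 of 3 called), -0.29 in HOXC (0 of 8 called) and 0.02 in HOXD (0 of 5 called). By position, it was 0.18 over 4 anterior genes, -0.12 over 8 central genes and -0.10 over 14 posterior genes. Summed HOXA levels were 150.8, 168.6 and 148.4 TPM in shZNF469 and 172.1, 182.0 and 153.5 TPM in shControl, with overlap. As a share of the summed HOX TPM, HOXA held 73.8%, 72.2% and 71.5% in shZNF469 and 74.2%, 73.9% and 75.0% in shControl. These shares did not overlap, but the nearest libraries of the groups were at 73.8% and 73.9%, and the difference was not tested. HOXA10, which fell, is part of these sums. HOXC held 16.8%, 17.2% and 19.5% in shZNF469 and 16.7%, 17.2% and 15.6% in shControl.

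**Figure D4:**
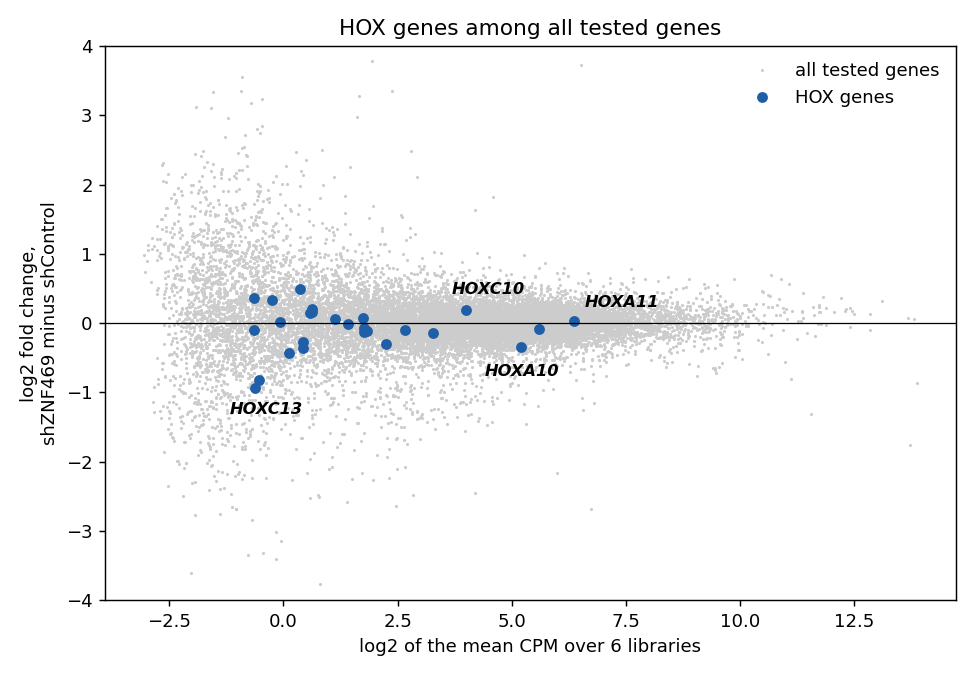
Log2 fold change (shZNF469 minus shControl) against the log2 mean CPM over 6 libraries for all 16353 tested genes (grey; 66 lie beyond the axis limit of 4) and the 26 tested HOX genes (blue). The HOX genes lie between -0.94 and 0.49.

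Noncoding RNAs of the HOX clusters did not pass. Of 11 analysed, 8 were tested, and 0 were higher and 0 lower by edgeR, beside 9.9% of all genes (0 higher and 1 lower at an unadjusted p under 0.05, 0 and 0 by limma, and 0 and 1 by DESeq2, which called 22.5% of all genes), with a median log2 fold change of -0.10. HOTAIR, transcribed from HOXC and used as a marker of posterior sites, had 13.5, 16.3 and 12.2 CPM in shZNF469 and 17.0, 17.9 and 17.2 CPM in shControl, without overlap (log2 fold change -0.31, SE 0.111, edgeR adjusted p = 0.136). It passed with DESeq2 (adjusted p = 0.0363) and without shZNF469 replicate 2 (edgeR adjusted p = 0.027). HOTTIP, transcribed next to HOXA13, had 2.10, 2.06 and 2.12 CPM in shZNF469 and 1.12, 1.59 and 1.74 CPM in shControl, also without overlap, and did not pass (edgeR adjusted p = 0.28).

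The list of HOX partners and related proteins held 11 tested genes, all of the TALE class save PBXIP1. Of these, 1 rose and 1 fell (18.2%, beside 9.9% of all genes), with a median log2 fold change of -0.05. DESeq2, which called 22.5% of all genes, called 3 higher and 2 lower, and limma 1 higher and 0 lower. PBX3 rose to 200.7, 211.6 and 192.7 CPM in shZNF469, against 154.4, 158.4 and 147.4 CPM in shControl (log2 fold change 0.40, SE 0.057, edgeR adjusted p = 0.00708). MEIS2 fell to 69.4, 70.6 and 69.5 CPM in shZNF469, against 87.9, 88.3 and 90.3 CPM in shControl (log2 fold change -0.35, SE 0.047, edgeR adjusted p = 0.00573). For both genes the groups stood apart. The MEIS2 call was lost with limma on the TPM (adjusted p = 0.191 and 0.182).

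Of 41 tested genes for other position-linked transcription factors, 0 were higher and 0 lower by edgeR, beside 9.9% of all genes (3 and 4 at an unadjusted p under 0.05, 0 and 0 by limma, and 3 and 3 by DESeq2, which called 22.5% of all genes), with a median log2 fold change of -0.04. TBX4, a hindlimb gene, had 56.7, 51.5 and 56.6 CPM in shZNF469 and 45.1, 48.3 and 47.8 CPM in shControl, without overlap (log2 fold change 0.22, edgeR adjusted p = 0.0598). Its call was gained without shZNF469 replicate 2 (adjusted p = 0.0263), with the higher CPM filter (adjusted p = 0.0415) and with DESeq2 (adjusted p = 0.00286). MSX2, which acts at limb bud margins, had 26.9, 27.5 and 28.9 CPM in shZNF469 and 20.9, 22.7 and 25.4 CPM in shControl (edgeR adjusted p = 0.0866, and 0.00986 by DESeq2). PITX1 and TBX5 were chosen after their values were seen. The hindlimb gene PITX1 had 33.5 to 35.3 TPM in shZNF469 and 37.0 to 41.7 TPM in shControl, and the forelimb gene TBX5 had 37.7 to 40.0 TPM in shZNF469 and 41.3 to 42.8 TPM in shControl, beside 38.8 to 41.4 TPM in shZNF469 and 32.8 to 36.4 TPM in shControl for TBX4. Neither PITX1 nor TBX5 passed (edgeR adjusted p = 0.127 and 0.341).

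Of 52 regulators of HOX chromatin, all tested, 5 rose and 3 fell (15.4%, beside 9.9% of all genes), with a median log2 fold change of -0.003. EZH1, a histone methyltransferase of Polycomb complexes, rose to 54.1, 50.4 and 51.4 CPM in shZNF469, against 34.0, 36.4 and 34.0 CPM in shControl (1.49-fold, edgeR adjusted p = 0.00158). CBX7, a Polycomb chromodomain protein, rose 1.39-fold (28.4 ± 1.13 CPM in shZNF469 and 20.5 ± 0.889 CPM in shControl, SD, n = 3 each, edgeR adjusted p = 0.00521). MLLT3, a reader of acylated histones, rose 1.39-fold and PHF1, a Polycomb accessory protein, 1.25-fold (edgeR adjusted p = 0.00599 and 0.0139). ASH2L, a core subunit of trithorax-type methyltransferases, fell 1.34-fold (30.8 ± 1.28 CPM in shZNF469 and 41.2 ± 0.755 CPM in shControl, SD, n = 3 each, edgeR adjusted p = 0.00496), and DOT1L, the histone H3 lysine methyltransferase that works with MLL fusion partners, fell 1.23-fold (edgeR adjusted p = 0.0321). The counts of the list changed with the tool, to 8 higher and 6 lower with DESeq2 (beside 22.5% of all genes). They were 3 higher and 1 lower with limma, and also changed with single libraries. Leaving out shZNF469 replicate 3 gave 7 higher genes, and the number of higher genes was 3 without shZNF469 replicate 1 or shControl replicate 1 or 3. The number of lower genes was 1 without shZNF469 replicate 1 or 3 or any 1 of the shControl libraries, and 4 when shZNF469 replicate 2 was left out. The calls of EZH1, CBX7 and ASH2L held in all 14 alternatives, whereas that of MLLT3 was lost in 2 (both with limma), that of PHF1 in 3 (without shZNF469 replicate 1, shControl replicate 1 or shControl replicate 3) and that of DOT1L in 9. KMT2A rose and EZH2 fell as well (edgeR adjusted p = 0.0355 and 0.0435), and were named after their values were seen.

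Retinoic acid is a signal that switches on HOX genes in the embryo. Of 17 tested genes of its pathway, 2 fell and 0 rose by edgeR, 11.8% beside 9.9% of all genes. At an unadjusted p under 0.05, 1 was higher and 5 were lower. DESeq2 called 1 higher and 4 lower, beside 22.5% of all genes. The median log2 fold change of the list was 0.05. ALDH1A1, an enzyme that makes retinoic acid, fell to 831.3, 870.7 and 869.3 CPM in shZNF469, against 1117, 1111 and 1138 CPM in shControl (1.31-fold, edgeR adjusted p = 0.00159). RDH10, which makes its precursor retinal, fell to 23.0, 24.1 and 21.3 CPM in shZNF469, against 31.8, 34.5 and 31.8 CPM in shControl (1.44-fold, edgeR adjusted p = 0.00499). Both calls held in all 14 alternatives. Without shControl replicate 1, 1 gene of the list was higher.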

How the data were processed

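The authors deposited 1 table with a whole-number read count and a TPM (scaled by length and library total) for each gene and library. HISAT2, StringTie and GRCh38.p14 are named, per the submitters' processing notes, and the kit was NEBNext Ultra RNA (labels' protocols). For annotation release, strand setting and low-value filters, each is not given in the sources used here. Counts were tested with edgeR 4.0.16 in R 4.3.3: filterByExpr with a minimum count of 10, TMM scaling, quasi-likelihood F-test of shZNF469 against shControl (two-sided), Benjamini-Hochberg adjustment over 16353 genes, threshold 0.05. SE and 95% intervals come from the estimate and its F statistic. Alternatives used DESeq2 1.42.0, other scalings and filters, the replicate number as a block, single libraries left out, and limma 3.58.1 on log2(TPM + 0.1) or log2(TPM + 1). The edgeR step was also run on counts simulated from the mean levels and its own fitted dispersions. Such a run cannot show how well that model holds for these data. Library pairs within a group differed by more than sampling noise (chi-square 7.96 to 36.8 per degree of freedom). Upstream windows are from RefSeq, exon overlaps from GENCODE 29.

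The members and lists were chosen with earlier results of these data known. Of the members, 1 is not reported here singly, though counts and sums include it. Values in each library are given for members that passed, the 3 highest by TPM in each cluster, and members with a mean of 1 CPM or more whose groups do not overlap; from each list, up to 6 called genes with the lowest p, otherwise the 2 with the lowest p.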

Additional observations from a re-analysis of the deposited data

How the results depend on the processing

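ZNF469 stayed lower, and 0 HOX genes were higher, in all 14 alternatives. The count of lower HOX genes, 1 (HOXA10), was 1 with DESeq2, both other scalings, both other filters and the replicate block, 0 with limma on log2(TPM + 0.1), 0 with limma on log2(TPM + 1), and 0 to 1 with single libraries left out. The cause was not tested. The other HOX genes given with values in each library stayed on their side of the threshold where a value could be had. Over all genes, the 745 higher and 874 lower calls became 1638 and 1642 with DESeq2, 191 and 462 or 233 and 526 with limma (pseudocount 0.1 or 1), and 204 to 769 and 333 to 854 with single libraries left out.

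The replicate numbers do not show pairing: deviations from group means of same-numbered libraries correlated at -0.023, 0.076 and 0.033 over genes, and shZNF469 replicates 1 and 3 each correlated better with a shControl library of another number. With the replicate block HOXA10 kept its call (log2 fold change -0.35, edgeR adjusted p = 0.0221), and all genes gave 592 higher and 736 lower. Position-linked factors gained 1 lower gene and chromatin regulators kept 4 higher and 1 lower. The SE was widest, 1.16 on log2, for HOXB3, which was listed at 0 in 1 library.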

Other observations

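HOXC13, a gene of hair and nail formation, was chosen after its values were seen. It had 0.45, 0.464 and 0.418 CPM in shZNF469 and 1.10, 0.806 and 0.668 CPM in shControl, or 21, 23 and 17 counts in shZNF469 and 39, 38 and 25 in shControl. The groups did not overlap, but the difference did not pass (log2 fold change -0.94, SE 0.489, 95% interval -2.09 to 0.20, edgeR adjusted p = 0.298). Its paralog HOXD13 was higher in each shZNF469 library than in any shControl library without passing, and their paralogs HOXA13 and HOXB13 overlapped between groups. No test of the difference between these paralogs was run.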
